A study of Mus musculus with 8 samples.

Results

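Neurons release transmitter by fusing synaptic vesicles with the presynaptic membrane, and the genes that build this machinery were compared between brains labelled TNF-/- and brains labelled TNF+/+. The set holds 42 genes chosen by function: synaptotagmins and Doc2 proteins, proteins of the vesicle membrane and coat, SNARE proteins with complexins, active zone and priming proteins, and Rab3 proteins with an effector. A gene was measured where a probe set pairs with its symbol alone, and the brightest such probe set, by its mean signal in the 8 arrays, stood for it. By this rule 41 of the 42 were measured, out of 19938 genes in all. The missing one is Vamp2, the main vesicle SNARE of forebrain neurons, whose 1 probe set is shared with other symbols. Of the 41 genes, 39 have 1 probe set, Unc13a has 3 and Unc13c has 7.

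The samples were lysates of whole brain from male mice aged 2 to 4 months, from a study of the brain in mice deficient for tumour necrosis factor (TNF), an inflammatory cytokine. The 4 TNF-/- samples carry the genotype TNF-/- and the 4 TNF+/+ samples the genotype TNF+/+ on C57BL/6. None was treated, and the labels call each one a biological replicate. The targeted allele and the strain background of the TNF-/- mice are not in the labels. Each sample had its own Affymetrix Mouse Gene ST array, read as a log2 signal per probe set, so a difference of 1 on this scale is a doubling. The number of arrays, 4 in each group, limits the precision. In a lysate of a whole tissue, fewer cells of a type and less RNA per cell cannot be told apart.

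The signal of Tnf itself ran opposite to what the labels say. Tnf had 5.67, 5.87, 5.92 and 6.21 in arrays labelled TNF-/-, against 4.48, 4.93, 4.24 and 4.47 in arrays labelled TNF+/+ (difference 1.39 ± 0.16, SE; limma, adjusted p = 0.0278). The size was 1.29 to 1.52 with any 1 array left out, though the adjusted p was then under 0.05 in 1 of 8 cases, and 1.21 without TNF+/+ arrays 3 and 4 (limma, adjusted p = 0.216). The sources used here do not say whether its probes lie in the deleted part. Directions are given for the arrays as they are labelled. The first principal component set TNF+/+ arrays 3 and 4 apart. TNF+/+ array 1 held a high signal of cerebellar genes: Gabra6, a GABA receptor subunit gene of granule cells, was 16-fold as high there as on average in the other 7, and 10 cerebellar markers averaged 7.68 in it, against 6.21 to 6.29 in the rest. The 14 general neuronal markers, among them Rbfox3 and Map2, averaged 9.89 to 9.95 in TNF-/- arrays and 9.79 to 9.87 in TNF+/+ arrays, and 40 of the 41 release genes were brighter than the median probe set, the exception being Cplx3. Markers of mature oligodendrocytes were lower in 8 of 9 cases in TNF-/- arrays, with means of 9.16 to 9.32 against 9.28 to 9.55 in TNF+/+ arrays and summed linear signals of 6686 to 7261 against 7344 to 8650. The part of these markers in the results below was not tested.

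As background, an arriving action potential opens calcium channels at the active zone, a protein scaffold on the presynaptic membrane. Vesicles already docked and primed there fuse when calcium binds a synaptotagmin, which acts on a bundle formed by the SNARE proteins syntaxin, SNAP-25 and synaptobrevin. Complexins bind that bundle, Munc13 and RIM proteins prepare it, and Rab3 proteins bring vesicles to the site. Synapsins, synaptophysins and SV2 proteins sit on the vesicle, which transporters fill with transmitter.

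No gene of the release machinery passed the threshold of an adjusted p under 0.05 between TNF-/- and TNF+/+ arrays (limma, Benjamini-Hochberg over 35556 probe sets), against 0.0502% of all genes (0.0351% higher and 0.015% lower). Over all probe sets the share was 0.0816% (0.0366% higher and 0.045% lower). The lowest adjusted p of the 41 was 0.334 and the highest 0.970 (limma). The differences, TNF-/- minus TNF+/+, ran from -0.21 for Unc13a, a Munc13 gene, to 0.43 for Syt10, a synaptotagmin gene, with a median absolute size of 0.0966 against 0.0754 over all genes. In 35 of the 41 the 95% interval of the difference lay within -0.5 and 0.5, and in all 41 within -1 and 1. The outermost bounds of these intervals were 1.66-fold, for Syt10, and 0.756-fold, for Unc13a. These bounds limit the size of any difference and do not show that the groups are alike.

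At an unadjusted p under 0.05, which is a description here, 8 of 41 release genes differed (19.5%), 6 higher and 2 lower in TNF-/- arrays. Over all genes this share was 11.7% (7.37% higher and 4.28% lower). Brightness bears on the reading: among the 10674 genes brighter than the median probe set the share was 15.6% (12.3% higher and 3.29% lower). Of the release genes 26 of 41 were higher in TNF-/- arrays (63.4%), with a median difference of 0.05, beside 64.4% and a median of 0.05 among the bright genes, and 47.8% and -0.01 among all genes. The direction of the set as a whole was thus near that of other bright genes. The count of 8 was 4 (9.76%) when any one of TNF-/- array 3, TNF-/- array 4 and TNF+/+ array 3 was left out, beside 7.76%, 9.13% and 9.21% of all genes in that order. It was 5 (12.2%, beside 10.6% of all genes) without TNF+/+ array 1. Without TNF+/+ arrays 3 and 4 together it was 3, and the share of release genes, 7.32%, was then below the 9.1% of all genes.

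**Figure D1:**
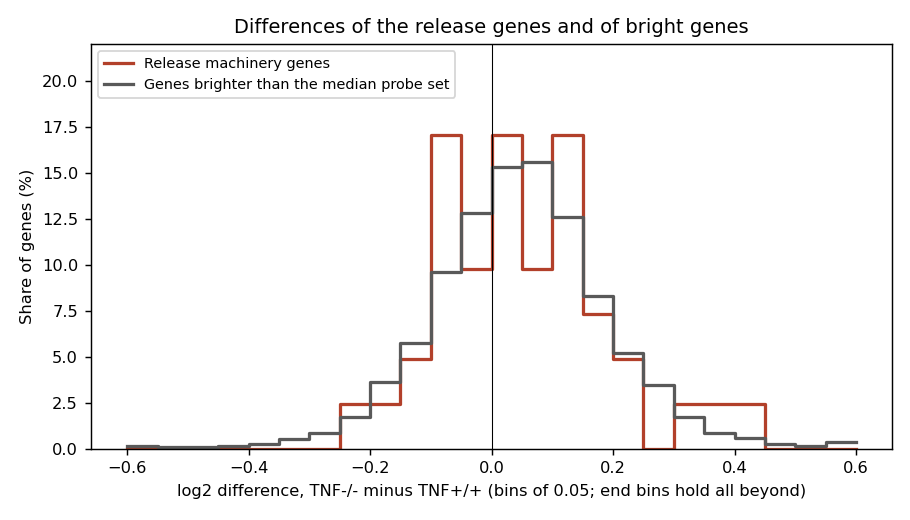
Share of genes (vertical axis, percent) by log2 difference, TNF-/- minus TNF+/+ (horizontal axis, bins of 0.05, with all values beyond the axis in the end bins), for the 41 release genes (red) and the 10674 genes brighter than the median probe set (grey). Both lie mostly above 0, with medians of 0.05 each.

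The groups did not overlap in 3 of the 41 genes (7.32%), against 7.66% of all genes (4.16% higher and 3.5% lower) and 8.82% of the bright ones. These were Syt4 and Cplx1, with all 4 TNF-/- arrays above all 4 TNF+/+ arrays, and Slc17a7, with all 4 below. For Syt4 the gap was narrow, with 9.837 in TNF-/- array 1 beside 9.834 in TNF+/+ array 1. After quantile normalization the 3 were Cplx1, Syt11 and Rab3c. With fewer arrays in a group there is less to overlap, and the count was 5 without TNF-/- array 1 and also without TNF+/+ array 2. Leaving out TNF+/+ array 4 gave 7, and leaving out TNF+/+ arrays 3 and 4 together gave 10. The share of all genes is not given for fewer arrays, so these counts do not show a gain in the release genes.

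**Figure D2:**
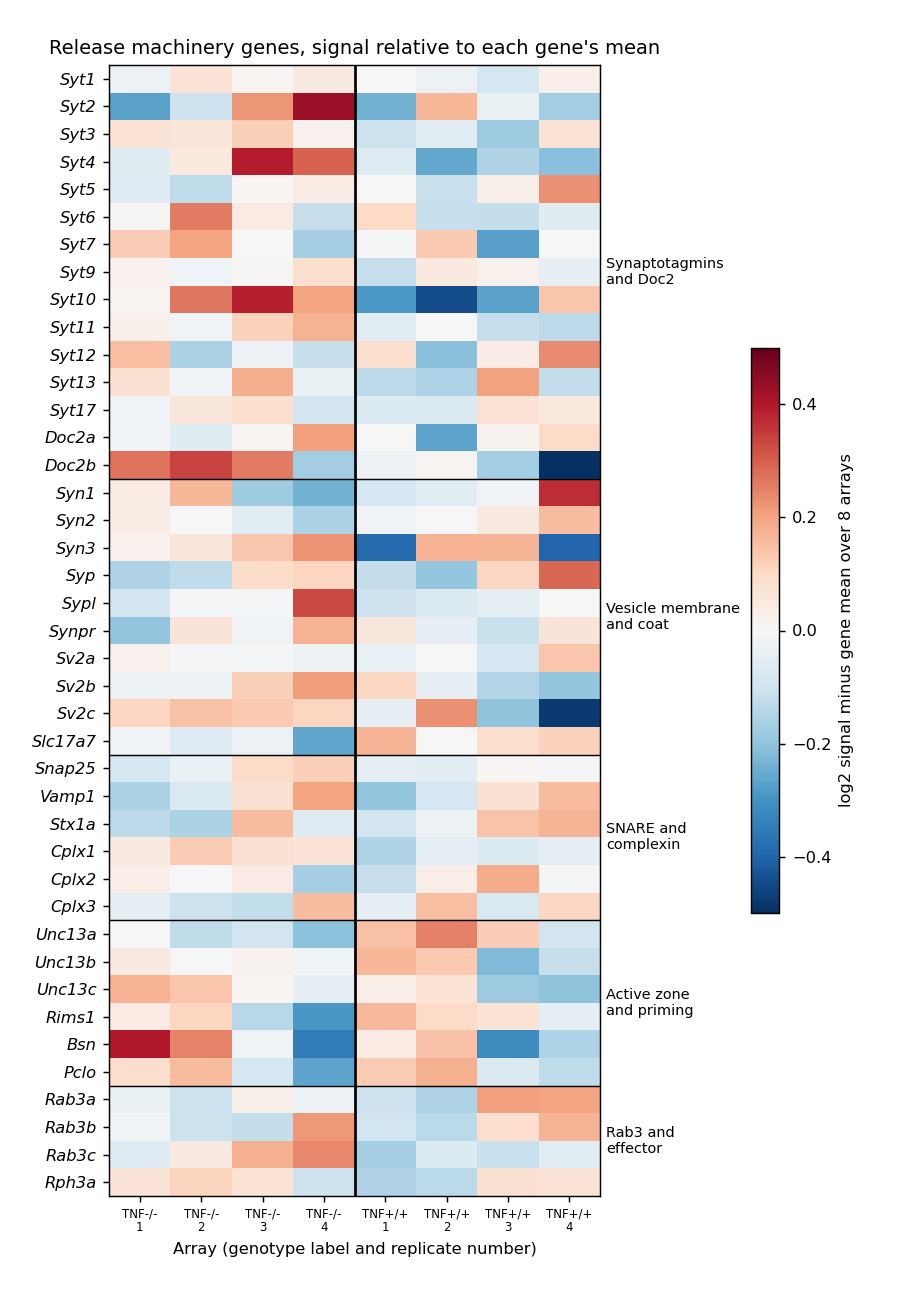
Heat map of the 41 release genes (rows, by role) in the 8 arrays (columns, TNF-/- left of TNF+/+), coloured by log2 signal minus the gene's mean over the 8 arrays, from -0.5 (blue) to 0.5 (red) with values beyond at the end colours. Cplx1 is on the red side in every TNF-/- array and on the blue side in every TNF+/+ array, and Slc17a7 is on the blue side in every TNF-/- array. Some of these cells are close to white, and most other rows hold both colours in each group.

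The promoters of 3 genes are shown as the regulatory context of the measured transcripts: Cplx1 and Slc17a7, whose groups did not overlap, and Syt10, with the largest difference. Syt4 is named only. Each line holds the 250 bases before the RefSeq start in GRCm38.p6, 5′ to 3′ on the gene's strand, and capitals mark GC boxes (GGGCGG or, on the other strand, CCGCCC), the short element that binds Sp1-type factors. Cplx1 lies on the minus strand at chr5:108550028-108550277, Slc17a7 on the plus strand at chr7:45163671-45163920 and Syt10 on the minus strand at chr15:89841861-89842110.
Cplx1: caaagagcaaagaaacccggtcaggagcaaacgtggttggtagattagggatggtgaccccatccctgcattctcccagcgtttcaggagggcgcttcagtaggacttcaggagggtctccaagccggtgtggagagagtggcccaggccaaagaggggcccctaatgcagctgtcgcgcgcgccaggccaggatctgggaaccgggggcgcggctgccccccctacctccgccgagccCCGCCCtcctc
Slc17a7: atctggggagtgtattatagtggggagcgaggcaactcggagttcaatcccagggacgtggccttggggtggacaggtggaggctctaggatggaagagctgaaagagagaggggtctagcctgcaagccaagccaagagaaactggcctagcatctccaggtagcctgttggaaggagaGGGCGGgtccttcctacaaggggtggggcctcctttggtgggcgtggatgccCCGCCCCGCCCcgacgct
Syt10: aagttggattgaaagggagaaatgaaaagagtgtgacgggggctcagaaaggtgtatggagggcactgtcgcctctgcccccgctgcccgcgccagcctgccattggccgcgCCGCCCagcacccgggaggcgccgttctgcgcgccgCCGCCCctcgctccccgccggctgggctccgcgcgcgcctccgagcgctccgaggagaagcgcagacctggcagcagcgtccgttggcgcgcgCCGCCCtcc

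The GC box occurs once in the Cplx1 window, as 1 match just before the start. The Slc17a7 window holds 3 matches, of which the last pair overlap by their shared C, and the Syt10 window holds 3 separate ones. GC content was 64.8% for Cplx1, 61.2% for Slc17a7 and 72% for Syt10. Over the release genes, 44 RefSeq promoter windows of 31 of the 41 genes could be matched by gene ID, and 29 of these windows (65.9%) held a GC box, against 10756 of 32851 windows of all genes (32.7%). Their median GC content was 61.2%, against 52.4% over all windows, so a motif made of G and C has more chances in them. The cyclic AMP response element TGACGTCA, which reads the same on both strands, was in 1 window of the release genes (2.27%, against 1.55% of all), the TATA box TATAAA on either strand in 3 (6.82%, against 12.4%) and the kappa B element in 1 (2.27%, against 3.9%). None of these last 3 motifs was in the 3 windows printed. A match describes letters and not a bound site, and genes that were higher and genes that were lower in TNF-/- arrays both carry the GC box.

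Synaptotagmins and Doc2 proteins, which carry C2 domains and for the most part sense calcium, held the 3 largest positive differences of the set. Of 15 measured, 13 were higher and 2 lower, with a median difference of 0.10, and 4 (26.7%) were at an unadjusted p under 0.05, all of them higher. Among the bright genes 64.4% were higher and 15.6% were at an unadjusted p under 0.05. The mean of the 15 was 8.15, 8.18, 8.25 and 8.18 in TNF-/- arrays, against 8.07, 8.04, 8.06 and 8.10 in TNF+/+ arrays. The groups did not overlap in this mean as deposited or after quantile normalization, and overlapped when arrays were centred on their medians; 12 of 15 were higher under both. General neuronal markers stood the same way, with 11 of 14 higher in TNF-/- arrays and means, given above, that also did not overlap as deposited; their part in the result was not tested. Of the 4, Syt4 and Syt11 are known as synaptotagmins whose first C2 domain does not bind calcium, so 2 of the 4 are not calcium sensors in the strict sense.

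Syt10, which in mouse olfactory bulb neurons acts in calcium-dependent secretion of IGF-1, had 7.53, 7.78, 7.90 and 7.71 in TNF-/- arrays, against 7.23, 7.07, 7.25 and 7.65 in TNF+/+ arrays. All TNF-/- arrays lay above TNF+/+ arrays 1 to 3, and TNF+/+ array 4 lay among them. The difference was 0.43 ± 0.13 (SE; 1.35-fold; limma, adjusted p = 0.334), and it was 0.55 ± 0.10 without TNF+/+ array 4 (limma, adjusted p = 0.199). Olfactory bulb markers moved between arrays too: the mean of 6 was 4.91, 5.20, 5.16 and 5.22 in TNF-/- arrays, against 5.09, 4.73, 4.81 and 5.26 in TNF+/+ arrays. TNF+/+ array 4 was the highest of its group in both Syt10 and these markers. Summed linear signals of the markers ran from 262 to 368 in TNF-/- arrays and from 240 to 353 in TNF+/+ arrays, 2 of the 6 were higher in TNF-/- arrays, and their part in the result was not tested.

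Syt4, whose product sits on dense-core and other secretory vesicles, had 9.84, 9.95, 10.29 and 10.19 in TNF-/- arrays, against 9.83, 9.64, 9.75 and 9.69 in TNF+/+ arrays. Arrays 3 and 4 of the TNF-/- group were well above all others, while array 1 was level with the highest TNF+/+ array. The difference was 0.34 ± 0.10 (SE; 1.27-fold; limma, adjusted p = 0.344). Syt11, a related gene whose product limits vesicle retrieval and traffics in other membranes, had 11.95, 11.91, 12.03 and 12.09 in TNF-/- arrays, against 11.86, 11.92, 11.80 and 11.79 in TNF+/+ arrays. Here TNF+/+ array 2 lay above TNF-/- array 2, and the difference was 0.15 ± 0.06 (SE; limma, adjusted p = 0.440).

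Doc2b, a high-affinity calcium sensor gene linked to spontaneous release, had 6.62, 6.69, 6.61 and 6.17 in TNF-/- arrays, against 6.32, 6.36, 6.18 and 5.83 in TNF+/+ arrays. Array 4 was the lowest in each group, and TNF-/- array 4 lay at the level of TNF+/+ array 3. The difference was 0.35 ± 0.15 (SE; 1.28-fold; limma, adjusted p = 0.448), and 0.18 ± 0.15 without TNF+/+ arrays 3 and 4. Its relative Doc2a differed by 0.07 ± 0.09 (SE).

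The fast calcium sensors that trigger synchronous release gave small or scattered differences. Syt1, the sensor of most forebrain synapses, had 12.20, 12.30, 12.24 and 12.27 in TNF-/- arrays, against 12.23, 12.20, 12.14 and 12.26 in TNF+/+ arrays. The groups interleave within a narrow band, and the difference was 0.05 ± 0.05 (SE), with a 95% interval from -0.07 to 0.16, among the tightest of the set. Syt2, the fast sensor of many brainstem and spinal neurons, had 6.81, 6.98, 7.30 and 7.51 in TNF-/- arrays, against 6.85, 7.25, 7.04 and 6.91 in TNF+/+ arrays, a difference of 0.14 ± 0.16 (SE). Array 1 was the lowest for Syt2 in both groups and TNF-/- array 4 the highest, as for the mean of 7 hindbrain markers, which was 3.88, 4.47, 4.54 and 4.96 in TNF-/- arrays and 4.08, 4.26, 4.56 and 4.16 in TNF+/+ arrays. Summed linear signals of these markers ran from 106 to 328 in TNF-/- arrays and from 123 to 213 in TNF+/+ arrays, with 5 of 7 higher in TNF-/- arrays, and their part in the spread of Syt2 was not tested. Syt9, another fast sensor, differed by 0.04 ± 0.06.

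Among the remaining synaptotagmins, Syt3 differed by 0.14 ± 0.06 (SE) and its interval, from -0.01 to 0.28, barely included 0. Syt7, the slow sensor of asynchronous release and facilitation, had 7.76, 7.84, 7.64 and 7.47 in TNF-/- arrays, against 7.63, 7.77, 7.37 and 7.64 in TNF+/+ arrays, and the groups overlapped (difference 0.07 ± 0.11). Syt13, which lacks calcium-binding residues, had 7.97, 7.88, 8.07 and 7.86 in TNF-/- arrays, against 7.76, 7.74, 8.09 and 7.77 in TNF+/+ arrays. Only TNF+/+ array 3 kept the groups from separating, and the difference was 0.10 ± 0.09 with it and 0.19 without it. Syt6 (0.10 ± 0.09) and Syt17 (0.01 ± 0.06) were higher in TNF-/- arrays by less than or about their errors. The lower pair were Syt5, of dense-core vesicles (-0.07 ± 0.08), and Syt12 (-0.08 ± 0.11).

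**Figure D3:**
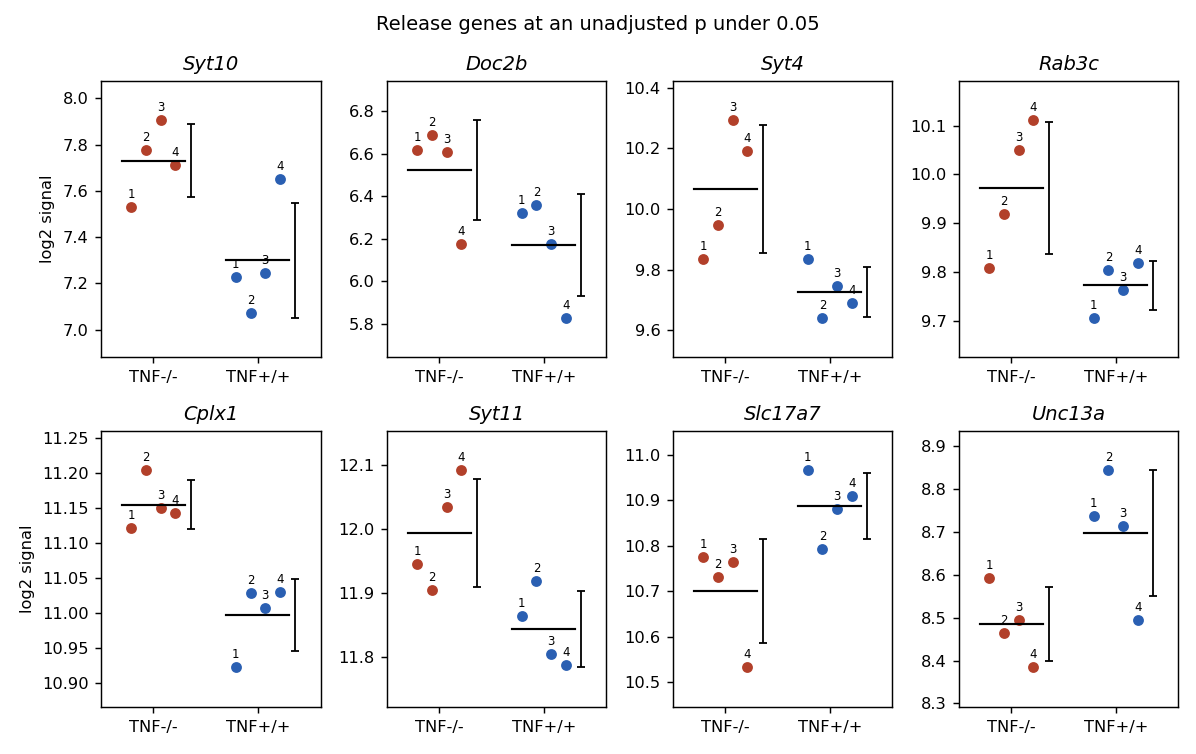
Log2 signal (vertical axes) of the 8 release genes at an unadjusted p under 0.05, by array (points, labelled with the replicate number; TNF-/- red on the left, TNF+/+ blue on the right), with the group mean (line) and SD (bar, n = 4). Cplx1, Syt4 and Slc17a7 have no overlap between the groups, and the others have at least 1 array inside the other group's range.

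Genes of the vesicle membrane and coat showed no common direction. Of 10 measured, 5 were higher (50%) and 5 lower in TNF-/- arrays, with a median difference of 0.00, and 1 (10%) was at an unadjusted p under 0.05. Among the bright genes 64.4% were higher and 15.6% were at such a p. The 1 gene was Slc17a7, which encodes VGLUT1, the transporter that fills vesicles of cortical, hippocampal and cerebellar granule neurons with glutamate. It had 10.77, 10.73, 10.76 and 10.53 in TNF-/- arrays, against 10.97, 10.79, 10.88 and 10.91 in TNF+/+ arrays. TNF-/- array 4 was the lowest and TNF+/+ array 1, the one with the cerebellar signal, the highest. The difference was -0.19 ± 0.07 (SE; 0.879-fold; limma, adjusted p = 0.412), -0.16 ± 0.08 without TNF+/+ array 1 and -0.13 ± 0.06 without TNF-/- array 4. As deposited the groups did not overlap, with or without TNF+/+ array 1, while after quantile normalization they overlapped.

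Synapsins, which tether vesicles in the reserve pool, went separate ways. Syn1 had 9.84, 9.97, 9.63 and 9.57 in TNF-/- arrays, against 9.71, 9.75, 9.78 and 10.17 in TNF+/+ arrays. TNF+/+ array 4 stood above all other arrays, so that the difference of -0.10 ± 0.13 (SE) became 0.00 without it. Syn2 differed by -0.09 ± 0.07. Syn3, a form with a role in early neurons, had 6.65, 6.69, 6.76 and 6.85 in TNF-/- arrays, against 6.24, 6.80, 6.79 and 6.23 in TNF+/+ arrays. The TNF+/+ arrays split into a low pair (1 and 4) and a high pair, with the TNF-/- arrays between and among them (difference 0.22 ± 0.15).

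SV2 proteins are vesicle glycoproteins that modulate release and serve as the entry receptors of a botulinum toxin. Sv2c, the form enriched in the basal ganglia, had 7.59, 7.63, 7.61 and 7.59 in TNF-/- arrays, against 7.44, 7.71, 7.28 and 7.002 in TNF+/+ arrays. The TNF-/- values lay within 0.05 of one another and the TNF+/+ values were spread over 0.71, with array 2 above every TNF-/- array. The difference was 0.25 ± 0.13 (SE; 95% interval -0.06 to 0.55), and 0.36 without TNF+/+ array 2. Without TNF+/+ arrays 3 and 4 it was 0.03. Sv2a, the broadly expressed form, differed by -0.01 ± 0.06, and Sv2b, common in forebrain neurons, by 0.14 ± 0.09.

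The synaptophysin family, abundant 4-pass proteins of the vesicle, had differences with intervals that include 0. Syp had 11.55, 11.57, 11.79 and 11.81 in TNF-/- arrays, against 11.58, 11.51, 11.80 and 11.99 in TNF+/+ arrays. In both groups arrays 3 and 4 exceeded arrays 1 and 2, and the difference between groups was -0.04 ± 0.12 (SE). Sypl, a relative found in many tissues, differed by 0.11 ± 0.09, or 0.02 without TNF-/- array 4, and Synpr, which encodes synaptoporin, by 0.01 ± 0.09.

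In the SNARE and complexin group 3 of 6 measured genes were higher and 3 lower, with a median difference of -0.01. Cplx1, the complexin of many inhibitory and brainstem neurons, clamps and activates the SNARE bundle. It had 11.12, 11.20, 11.15 and 11.14 in TNF-/- arrays, against 10.92, 11.03, 11.01 and 11.03 in TNF+/+ arrays. The lowest TNF-/- array exceeded the highest TNF+/+ array, and the spread within each group was small. The difference was 0.16 ± 0.05 (SE; 1.12-fold; 95% interval 0.04 to 0.27; limma, adjusted p = 0.357), and it kept its direction and lack of overlap with any 1 array left out and after both other scalings. Cplx2, the complexin of excitatory forebrain neurons, differed by -0.05 ± 0.08, and Cplx3, best known from retinal ribbon synapses, by -0.07 ± 0.08 at a signal of 4.61 to 4.88, below that of the median probe set.

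The SNARE proteins themselves differed by less than 0.1. Snap25, the plasma membrane SNARE with a pair of helices in the bundle, had 11.78, 11.84, 11.97 and 11.99 in TNF-/- arrays, against 11.82, 11.82, 11.88 and 11.86 in TNF+/+ arrays. TNF-/- arrays 3 and 4 were the highest and array 1 the lowest of the 8, and the difference was 0.05 ± 0.06 (SE). Stx1a, which encodes syntaxin-1A, had 7.92, 7.89, 8.20 and 7.99 in TNF-/- arrays, against 7.96, 8.02, 8.19 and 8.22 in TNF+/+ arrays, with overlap (difference -0.10 ± 0.09). Vamp1, the synaptobrevin of brainstem and spinal neurons, had 9.17, 9.25, 9.40 and 9.52 in TNF-/- arrays, against 9.12, 9.24, 9.40 and 9.48 in TNF+/+ arrays. Its values nearly coincided by replicate number across the groups, and the difference was 0.02 ± 0.10.

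**Figure D4:**
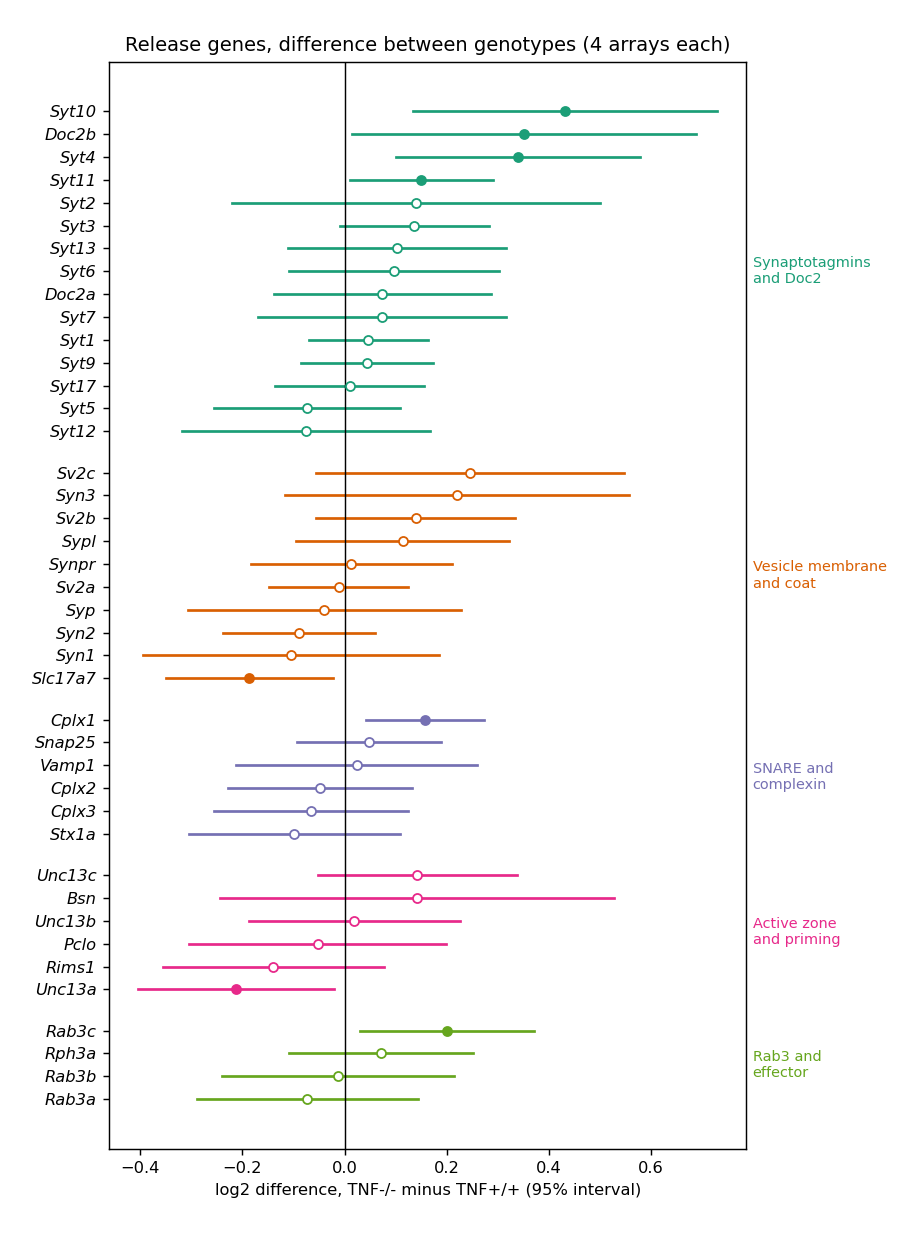
Log2 difference, TNF-/- minus TNF+/+ (horizontal axis; points, with 95% intervals as lines; 4 arrays in each group), of the 41 release genes by role, with filled points for an unadjusted p under 0.05. In 33 of the 41 the interval includes 0, and the synaptotagmin and Doc2 genes lie to the right of 0 in 13 of 15 cases.

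Active zone and priming genes were split 3 to 3, with a median difference of -0.02. At an unadjusted p under 0.05 there was 1 gene, Unc13a (16.7%, beside 15.6% of the bright genes). Unc13a encodes Munc13-1, the priming factor of most excitatory synapses. Its brightest probe set had 8.59, 8.47, 8.50 and 8.38 in TNF-/- arrays, against 8.74, 8.84, 8.71 and 8.49 in TNF+/+ arrays. TNF+/+ array 4 lay among the TNF-/- arrays and the other 3 above them all. The difference was -0.21 ± 0.08 (SE; 0.863-fold; limma, adjusted p = 0.425). The probe sets of the gene disagreed, however: a second differed by -0.06 ± 0.07 and the third, the dimmest, by 0.24 ± 0.10, with unadjusted p under 0.05 in opposite directions for the first and the third. Averaged over its 3 probe sets, Unc13a differed by -0.01, so no direction can be given for the gene.

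Of the other Munc13 genes, Unc13b (Munc13-2) differed by 0.02 ± 0.09 (SE) and by -0.14 without TNF+/+ arrays 3 and 4, so its sign rests on those arrays. Unc13c (Munc13-3), the form of cerebellar granule cells, had 8.76, 8.72, 8.59 and 8.54 in TNF-/- arrays, against 8.61, 8.65, 8.40 and 8.38 in TNF+/+ arrays. These values and the difference of 0.14 ± 0.09 are of its brightest probe set. There TNF+/+ array 1, high in other cerebellar genes, was not high, but in another probe set it was the highest of the 8 (8.36). Of its 7 probe sets 6 were higher in TNF-/- arrays, between 0.01 and 0.25, and 1 was at -0.01. With 1 of the 7 at an unadjusted p under 0.05 (0.13 ± 0.05), they leave the size of the difference unsettled.

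The scaffold genes of the active zone differed more between arrays of 1 group than between the groups. Bsn, which encodes the very large scaffold protein bassoon, had 8.01, 7.86, 7.59 and 7.26 in TNF-/- arrays, against 7.65, 7.76, 7.29 and 7.45 in TNF+/+ arrays. Pclo, which encodes its relative piccolo, had 9.89, 9.97, 9.72 and 9.54 in TNF-/- arrays, against 9.93, 9.98, 9.73 and 9.68 in TNF+/+ arrays. In both genes and both groups, arrays 1 and 2 were higher than arrays 3 and 4. Between the groups Bsn differed by 0.14 ± 0.17 (SE), the largest error of the set, and Pclo by -0.05 ± 0.11. Rims1, which encodes the calcium channel tether RIM1, had 9.37, 9.43, 9.19 and 9.03 in TNF-/- arrays, against 9.49, 9.42, 9.40 and 9.28 in TNF+/+ arrays (difference -0.14 ± 0.09).

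**Figure D5:**
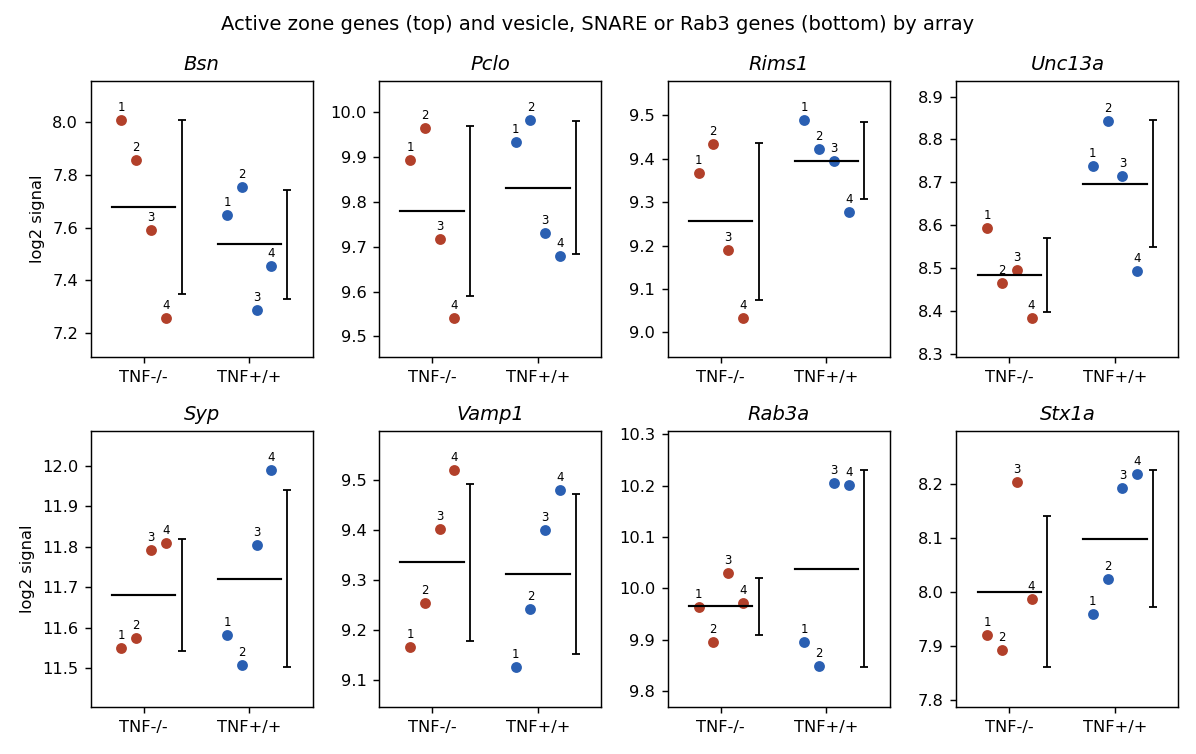
Log2 signal (vertical axes) by array (points, labelled with the replicate number; TNF-/- red on the left, TNF+/+ blue on the right), with group mean (line) and SD (bar, n = 4), for 4 active zone genes (top row) and 4 vesicle, SNARE or Rab3 genes (bottom row). Bsn and Pclo are higher in arrays 1 and 2 of both groups, and Syp and Vamp1 higher in arrays 3 and 4 of both groups.

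The mean of the 6 active zone genes was 8.58, 8.54, 8.40 and 8.26 in TNF-/- arrays, against 8.56, 8.60, 8.35 and 8.33 in TNF+/+ arrays. Bsn and Pclo are among the 6, so its order, with arrays 1 and 2 above arrays 3 and 4, is partly theirs. In TNF-/- arrays Unc13a and Unc13b did not follow this order. Syp and Vamp1 had the reverse order in both groups. These 8 genes were picked for the plot with their values known, so the pattern is a description, and the labels name no extraction or hybridisation batch.

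Rab3 genes encode the small GTPases that mark vesicles before docking. Rab3c, a minor neuronal form, had 9.81, 9.92, 10.05 and 10.11 in TNF-/- arrays, against 9.71, 9.80, 9.76 and 9.82 in TNF+/+ arrays. All TNF-/- arrays but array 1 lay above the TNF+/+ arrays, and array 1 lay 0.01 below the highest of them. The difference was 0.20 ± 0.07 (SE; 1.15-fold; limma, adjusted p = 0.406). Rab3a, the main form at synapses, had 9.96, 9.90, 10.03 and 9.97 in TNF-/- arrays, against 9.90, 9.85, 10.21 and 10.20 in TNF+/+ arrays. The TNF+/+ arrays formed a pair at or under the lower end of the TNF-/- range and a pair above it, and the difference of -0.07 ± 0.09 was 0.09 without TNF+/+ arrays 3 and 4. Rab3b differed by -0.01 ± 0.10, and Rph3a, which encodes the Rab3 effector rabphilin, by 0.07 ± 0.08.

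Over the whole set the mean of the 41 genes was 8.75, 8.77, 8.79 and 8.76 in TNF-/- arrays, against 8.70, 8.72, 8.71 and 8.73 in TNF+/+ arrays. These means did not overlap and differed by 0.05. They overlapped after either other scaling, with a difference of 0.0333 after quantile normalization and 0.0362 with arrays centred on their medians. The mean of the 10674 bright genes lay between 7.53 and 7.60 in TNF-/- arrays and between 7.49 and 7.54 in TNF+/+ arrays, a difference of the same order (0.05).

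Other genes of the release cycle, on 5 lists that share no gene with the set, gave the same picture. Of 95 measured, 0 passed (limma, lowest adjusted p = 0.296), 17 (17.9%) were at an unadjusted p under 0.05 (13 of them higher in TNF-/- arrays, 4 lower), and 62 were higher (65.3%), with a median difference of 0.04. Among the bright genes 15.6% were at such a p and 64.4% were higher, and over all genes 11.7% and 47.8%. From each list the 3 genes with the smallest p are named here. On the list of further SNARE assembly factors 15 of 19 were higher (78.9%) and 5 (26.3%) were at an unadjusted p under 0.05, all higher. Stx3, a syntaxin gene, differed by 0.23 ± 0.07 (SE), Napg, which encodes an adaptor for SNARE disassembly, by 0.32 ± 0.10, and Snap23, a relative of Snap25 found in many cells, by 0.30 ± 0.09 (limma, adjusted p = 0.324 to 0.349). Stx3 had 5.81, 5.82, 5.85 and 5.93 in TNF-/- arrays, against 5.52, 5.71, 5.72 and 5.55 in TNF+/+ arrays, with no overlap.

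On the list of further active zone and Rab3 genes 16 of 20 were higher (80%) and 2 (10%) were at an unadjusted p under 0.05. Among the bright genes these shares were 64.4% and 15.6%, and over all genes 47.8% and 11.7%. The 2 genes were Rab3gap1 (0.16 ± 0.06, SE) and Rab3gap2 (0.14 ± 0.05), which encode the subunits of 1 enzyme that turns Rab3 off. Rab3d, a Rab3 form of secretory cells, came next at 0.15 ± 0.07, with overlap. Its signal of 4.15 to 4.49 was below that of the median probe set. Rab3gap1 had 9.24, 9.21, 9.38 and 9.33 in TNF-/- arrays, against 9.08, 9.13, 9.15 and 9.17 in TNF+/+ arrays, and Rab3gap2 had 8.69, 8.71, 8.67 and 8.57 in TNF-/- arrays, against 8.57, 8.46, 8.52 and 8.51 in TNF+/+ arrays. Neither gene's groups overlapped, though for Rab3gap2 TNF-/- array 4 and TNF+/+ array 1 were level, and neither passed (limma, adjusted p = 0.393 and 0.406).

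Further vesicle membrane genes gave 6 of 20 (30%) at an unadjusted p under 0.05, with 3 in each direction. This stands beside 15.6% of the bright genes and 11.7% of all genes (7.37% higher and 4.28% lower). Some genes of this list were dimmer than the median probe set, also among the lower ones. Slc30a3 encodes ZnT3, which loads zinc into vesicles of glutamatergic forebrain neurons, and had 8.74, 8.48, 8.64 and 8.51 in TNF-/- arrays, against 8.78, 8.80, 9.07 and 9.01 in TNF+/+ arrays. Every TNF-/- array lay below every TNF+/+ array, as for Slc17a7, and the difference was -0.32 ± 0.09 (SE; limma, adjusted p = 0.305). Syt16, a synaptotagmin relative without calcium binding, also showed no overlap, at -0.22 ± 0.06 (limma, adjusted p = 0.296). Slc18a2, the vesicular monoamine transporter gene, differed by 0.62 ± 0.19 with overlap (limma, adjusted p = 0.336).

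Proton pump genes, whose products power vesicle filling, gave 1 of 13 (7.69%) at an unadjusted p under 0.05 and 8 of 13 higher (61.5%). Among the bright genes these shares were 15.6% and 64.4%. Atp6v1a differed by 0.19 ± 0.08 (SE), Atp6v1h by -0.12 ± 0.06 and Atp6v0b by -0.23 ± 0.13. Endocytosis genes, which retrieve vesicles after fusion, gave 3 of 23 (13%) at an unadjusted p under 0.05, with 12 of 23 higher (52.2%). Clta, a clathrin light chain gene, differed by -0.27 ± 0.09, Dnm3, a dynamin gene, by 0.18 ± 0.07, and Dnajc6, which encodes the clathrin-uncoating factor auxilin, by 0.11 ± 0.04. Dnajc6 had 10.45, 10.45, 10.45 and 10.45 in TNF-/- arrays, against 10.33, 10.37, 10.33 and 10.33 in TNF+/+ arrays, the narrowest within-group spread among the genes named from these lists (limma, adjusted p = 0.438).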

How the data were processed

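Brain RNA of 4 TNF-/- and 4 TNF+/+ male mice was measured on 1 array each. The deposited values are the authors' log2 signals of 35556 probe sets; the scale follows from the values. Per the submitters' processing notes, GCOS, GCRMA and Partek were used, with no role or version stated; no source used here names the build. Values were used as deposited, without a filter. No pair of columns was identical. The platform annotation pairs 21789 probe sets with 1 symbol, 1621 with several and lists none for 12146; 21698 matched RefSeq (GRCm38.p6) by gene ID. The genes named were all measured release genes, the 3 of each further list with the smallest p, Tnf, and markers of an array that stands apart.

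The comparison used limma 3.58.1 under R 4.3.3: a genotype term, two-sided moderated tests (eBayes, prior degrees of freedom 2.52) and Benjamini-Hochberg adjustment across the whole table, with calls at an adjusted p under 0.05. SE and 95% intervals are limma's. The genes, their roles and the further lists were chosen with earlier results of these data known. The fits were tested on simulated data. Alternatives were other filters, scalings, variance models, SAM (which the series' design text names), probe set averages, the replicate number as a block and arrays left out. Plots used matplotlib 3.10.9.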

Additional observations from a re-analysis of the deposited data

Results flagged for a closer look

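In groups of 4 arrays, 1 array stood far from the other 3 in 3 of 86 groups checked, where about 4 would arise by chance. Doc2b was low in TNF-/- array 4, at 6.17 beside 6.61 to 6.69 in the others. Syt13 was high in TNF+/+ array 3, at 8.09 beside 7.74 to 7.77, and Syn1, on the X chromosome, was high in TNF+/+ array 4, at 10.17 beside 9.71 to 9.78.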

How the results depend on the processing

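Over 18 alternatives, none of the 41 release genes and none of the 95 further genes passed the adjusted threshold. The 8 genes at an unadjusted p under 0.05 kept their sign in each, and 42 of 737 gene values changed sign, all in other genes. The kept signs are no support for the 8, which were chosen on the same arrays. Several alternatives also leave the difference itself unchanged. Averaged over its probe sets, Unc13a was at -0.01. The 29 probe sets called over the whole table became 63 (42 higher, 21 lower) among probe sets with 1 gene symbol, 53 by SAM, 0 without TNF+/+ arrays 3 and 4, and 1 to 20 with 1 array left out. Leaving out 1 array gave 3 to 7 release genes without overlap, and 10 without TNF+/+ arrays 3 and 4. Fewer arrays leave less to overlap, and no share of all genes is given beside these counts. At an unadjusted p under 0.05 there were 4 to 8 release genes (9.76% to 19.5%) with 1 array left out, beside 7.76% to 12.9% of all genes. Without TNF+/+ arrays 3 and 4 there were 3, Syt10, Cplx1 and Unc13a (7.32%, beside 9.1% of all genes). The difference of the set's mean was 0.0464 to 0.0612 with 1 array left out. It was 0.0333 after quantile normalization and 0.0362 with arrays centred on their medians. Syt4, Syt10 and Cplx1 stayed at an unadjusted p under 0.05 in 8 of 8 cases with 1 array left out, Rab3c and Slc17a7 in 4, Syt11 and Doc2b in 3 and Unc13a in 2. These counts are no support for the 8 genes either, for the same reason as the kept signs. With the replicate number as a block, limma called 0 probe sets. In that fit 8 release genes (19.5%) were at an unadjusted p under 0.05, beside 11.3% of all genes. Unc13c stood in place of Syt11, and the lowest adjusted p was 0.229, for Doc2b (limma). Deviations of arrays with the same number correlated at 0.07, 0.11, 0.10 and 0.07 across all probe sets, where TNF+/+ array 4 correlated best with TNF-/- array 3 (0.10). Over the 19938 genes they correlated at 0.06, 0.21, 0.13 and 0.08. Over the 41 release genes alone they correlated at 0.34, 0.24, 0.42 and 0.22, where TNF-/- array 2 correlated best with TNF+/+ array 1 (0.37). Nothing in the labels ties a number to a shared day or litter, and over all probe sets the same-number correlations were not all over 0.1. The numbers were therefore not taken as pairs, and whether they mark a link was not tested. The cause of the changes between alternatives was not tested. Tnf differed by 1.39 with the block as without it, at an adjusted p of 0.129 (limma). The precision of 4 arrays in each group, with a median SE of 0.09, limits what differences could be seen.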
